A study of Mus musculus with 7 samples.

Results

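The immunoglobulin heavy chain variable (Ighv) segments were taken here as all genes whose GENCODE M21 symbol starts with Ighv and that had at least 20 reads summed over 7 mouse spleen libraries. Of the 185 annotated Ighv genes, 106 met this rule, among 55414 genes in the count table. The study set polyA RNA from the spleens of 3 wild-type samples (WT, genotype given as C57BL/6N) beside that of 4 samples labelled Fpr2KO, which lack Fpr2, a receptor for formylated peptides on myeloid cells. The labels name no treatment, and give neither age nor sex nor the strain background of the Fpr2KO mice. Whether each numbered replicate was its own animal is not stated, so the p-values below measure the spread between these samples.

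A developing B cell joins a V, a D and a J segment of the heavy chain locus into a single coding exon, which is then spliced to the exons of a constant gene such as Ighm or Ighg2c. The daughters of that cell mostly keep the same V segment, which encodes part of the binding site, but many unrelated clones use the same segment, so a count per segment does not identify a clone. The spleen holds naive follicular and marginal zone B cells, which make modest amounts of heavy chain message, and plasma cells, which make very large amounts.

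The 106 segments comprised 101 annotated as V genes and 5 as pseudogenes, and they covered 15 of the 16 annotated families. All lay on the minus strand of chromosome 12, between positions 113578504 and 116000461 (GRCm38), a stretch of 2.422 Mb. Their summed exons measured 347 to 480 bases, with a median of 353. Among the 79 Ighv genes below the rule, 50 had no read and all 79 together held 182 reads, against 343060 in the 106 members. Ighv1-83, with 20 reads, stood just inside the threshold and Ighv1-70, with 19, just outside. The threshold therefore left out almost none of the reads.

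The segments on which usage turned each had a close relative among the Ighv genes, which matters for reading any count assigned to them. The 3 pairs shown are the most used segment Ighv1-53 with its nearest relative among the members, Ighv1-72, the canonical segment of the nitrophenyl response in C57BL/6 mice; Ighv5-4 and Ighv5-9, each of which led a different Fpr2KO library; and Ighv14-4 with its nearest relative Ighv14-1. Each line gives the last 300 bases of the V exon, read 5′ to 3′ on the minus strand of chromosome 12 from GENCODE M21 transcripts (GRCm38), all of it coding. Capitals mark the bases that differ from the other member of the pair.
Ighv1-53: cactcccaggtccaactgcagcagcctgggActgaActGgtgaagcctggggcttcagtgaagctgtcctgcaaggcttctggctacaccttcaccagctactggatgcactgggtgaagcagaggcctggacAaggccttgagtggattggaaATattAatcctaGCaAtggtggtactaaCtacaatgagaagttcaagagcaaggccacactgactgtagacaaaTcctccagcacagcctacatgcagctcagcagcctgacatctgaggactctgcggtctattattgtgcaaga
Ighv1-72: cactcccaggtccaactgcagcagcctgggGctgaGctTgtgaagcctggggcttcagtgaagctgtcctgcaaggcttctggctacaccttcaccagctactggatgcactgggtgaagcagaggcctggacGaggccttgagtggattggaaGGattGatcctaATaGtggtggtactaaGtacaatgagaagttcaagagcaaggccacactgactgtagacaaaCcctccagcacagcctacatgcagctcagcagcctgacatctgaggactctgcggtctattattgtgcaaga
Ighv5-4: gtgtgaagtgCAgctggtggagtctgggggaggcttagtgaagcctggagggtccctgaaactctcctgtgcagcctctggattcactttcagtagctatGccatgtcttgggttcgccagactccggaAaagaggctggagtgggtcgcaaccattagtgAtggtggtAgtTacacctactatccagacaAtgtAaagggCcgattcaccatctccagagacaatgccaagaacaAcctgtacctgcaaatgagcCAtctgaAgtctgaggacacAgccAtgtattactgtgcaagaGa
Ighv5-9: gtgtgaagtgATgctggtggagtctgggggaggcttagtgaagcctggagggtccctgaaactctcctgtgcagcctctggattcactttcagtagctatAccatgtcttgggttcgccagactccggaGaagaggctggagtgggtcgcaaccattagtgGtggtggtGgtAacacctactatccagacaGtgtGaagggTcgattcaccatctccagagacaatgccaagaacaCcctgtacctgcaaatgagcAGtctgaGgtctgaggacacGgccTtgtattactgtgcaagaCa
Ighv14-4: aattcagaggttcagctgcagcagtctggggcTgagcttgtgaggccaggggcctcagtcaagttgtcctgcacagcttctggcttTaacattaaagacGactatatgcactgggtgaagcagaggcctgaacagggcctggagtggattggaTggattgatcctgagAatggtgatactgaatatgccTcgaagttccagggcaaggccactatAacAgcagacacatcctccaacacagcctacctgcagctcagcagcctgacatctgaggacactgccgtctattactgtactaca
Ighv14-1: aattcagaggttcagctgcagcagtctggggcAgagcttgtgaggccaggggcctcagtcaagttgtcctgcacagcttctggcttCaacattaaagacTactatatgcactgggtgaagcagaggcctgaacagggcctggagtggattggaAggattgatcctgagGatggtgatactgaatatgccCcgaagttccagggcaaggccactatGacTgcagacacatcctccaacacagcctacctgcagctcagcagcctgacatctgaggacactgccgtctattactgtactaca

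The Ighv1-53 stretch spans positions 115158403 to 115158702 and that of Ighv1-72 spans 115757984 to 115758283, and they differed at 12 of 300 bases. For Ighv5-4 (113597446 to 113597745) and Ighv5-9 (113661769 to 113662068) the number was 17. For Ighv14-4 (114176438 to 114176737) and Ighv14-1 (113931953 to 113932252) it was 8. Across all members the nearest other V exon was 95.2% identical at the median. The share of a member's 50-base windows found in no other GENCODE M21 gene had a median of 77.9%, and 13 members had under 50%. Ighv1-53 had 42.4%, Ighv1-72 7.49% and Ighv1-71 2.58%, the last because its V exon is identical to that of Ighv1-62-2. Counts of Ighv1-53, Ighv1-72 and Ighv1-71 are therefore uncertain, since the counting could have split or dropped reads shared with a copy. Ighv5-4, Ighv5-9 and Ighv14-4, with 80.1%, 86.2% and 78.8% of windows unique, were better separated.

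Library totals ran from 14968605 to 18692809 counts. Reads on Fpr2 numbered 537, 479 and 477 in WT, and every Fpr2KO library had 0, as labelled. The B cell markers were all detected, with Cd79a at 520 to 634 and Ms4a1, the gene for CD20, at 690 to 850 CPM (reads scaled to a common library size, here with edgeR's TMM factors). Fpr2KO replicates 1 and 2 held pancreatic acinar transcripts: 12 acinar markers summed to 889 and 504 CPM there and to 22.9 to 47.0 CPM elsewhere, where most of it was Cela1. WT replicate 3 had 42.9 CPM of 6 adipocyte markers against 10.2 to 19.2 in the others. Haemoglobin ranged from 9536 CPM in Fpr2KO replicate 2 to 86180 CPM in WT replicate 2. No gene of these lists passed the test: the 3 tested acinar genes had a median log2 fold change of 4.43, led by Prss2 (6.06) and Ctrl (4.43), the 2 tested adipocyte genes -1.58 (Cfd -2.65, Fabp4 -0.50) and the 4 haemoglobin genes -0.85 (Hba-a1 -0.98, Hbb-bs -0.93).

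WT replicate 3 carried far more Ighv message than any other library, and the remaining 6 did not separate by genotype. Reads on the segments made up 0.247%, 0.211% and 0.565% of the counts of WT replicates 1, 2 and 3 and 0.158%, 0.361%, 0.267% and 0.228% of those of Fpr2KO replicates 1 to 4. The group means were 0.341% ± 0.194 (SD, n = 3) and 0.254% ± 0.0848 (SD, n = 4), and the ranges overlapped. The Wilson 95% interval for WT replicate 3 was 0.561% to 0.568%, so counting error was small beside the spread between samples; these intervals cover counting error only. Without WT replicate 3 the difference, Fpr2KO minus WT, changed from -0.0875 to 0.0242 percentage points. In bulk tissue, more cells of a type and more RNA per cell cannot be told apart, and that holds for every level given here.

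The amount of Ighv message moved with that of the constant genes. Summed Ighv CPM was 2478, 2291 and 5759 in WT and 1598, 3414, 2594 and 2215 in Fpr2KO. The 8 heavy chain constant genes summed to 14607, 13342 and 34657 CPM in WT and 9860, 19103, 15285 and 12054 CPM in Fpr2KO. Both measures placed the 7 libraries in the same order, from WT replicate 3 down to Fpr2KO replicate 1. There were 17.0, 17.2 and 16.6 Ighv reads per 100 constant gene reads in WT and 16.2, 17.9, 17.0 and 18.4 in Fpr2KO. The highest library exceeded the lowest 3.60-fold in Ighv CPM, but only 1.13-fold in the sum of 14 B cell markers, which ran from 4612 to 5194 CPM. Jchain, which joins IgM and IgA into polymers and is made in plasma cells, was at 1971, 2000 and 4656 CPM in WT and 1620, 3185, 2651 and 1843 CPM in Fpr2KO. The other 11 plasma cell markers summed to 663, 613 and 1091 CPM in WT and 511, 771, 631 and 637 CPM in Fpr2KO. WT replicate 3 was highest and Fpr2KO replicate 1 lowest on each of these plasma cell and immunoglobulin measures; their part in the segment levels was not tested.

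**Figure D1:**
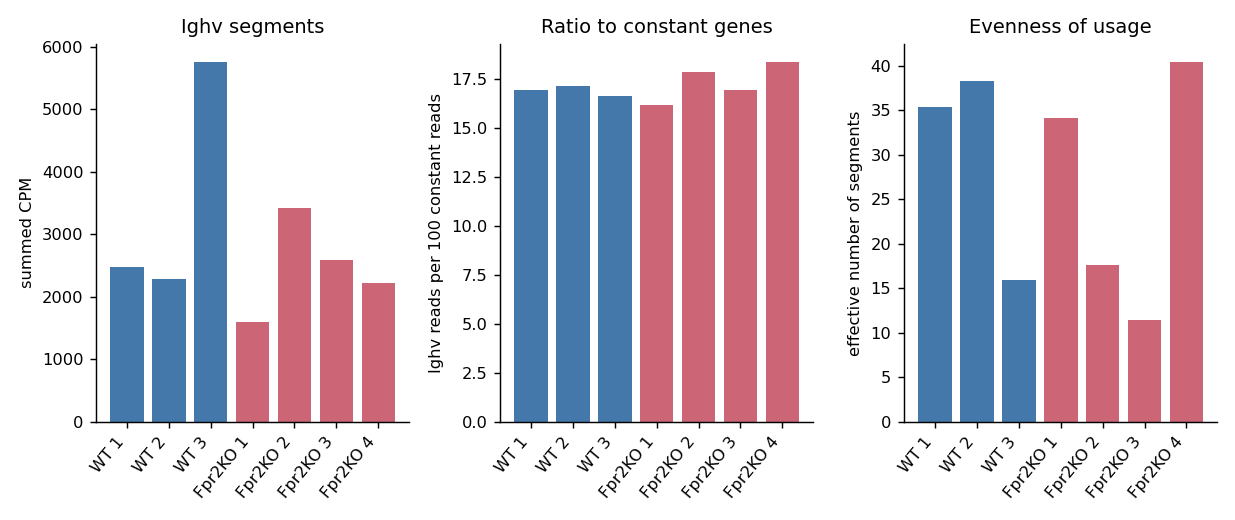
Bars give 1 value per library (blue WT, red Fpr2KO): summed Ighv CPM, Ighv reads per 100 heavy chain constant reads, and the effective number of segments. WT replicate 3 stands at 5759 CPM, the ratio to constant reads stays between 16.2 and 18.4, and the effective number falls to 15.9, 17.6 and 11.4 in WT replicate 3 and Fpr2KO replicates 2 and 3.

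Usage, the share of a library's summed Ighv reads that a segment took, was spread over many segments with a few in the lead. By mean share over the 7 libraries, 15 segments made up 50% of usage and 52 made up 90%. A mean share of at least 1% was reached by 36 segments, and 24 stayed under 0.1%. In each library 104 to 106 of the segments had at least 1 read. The 12 most used segments were also the 12 most used when reads were divided by exon length. The 5 pseudogenes together took 0.0438% to 0.136% of usage.

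The leading segment differed between libraries. It was Ighv1-82 with 7.95% in WT replicate 1, Ighv1-53 with 6.03% in WT replicate 2 and Ighv1-53 with 21.4% in WT replicate 3. In Fpr2KO it was Ighv5-9 with 9.60% in replicate 1, Ighv1-53 with 19.7% in replicate 2, Ighv5-4 with 26.9% in replicate 3 and Ighv1-26 with 6.37% in replicate 4. Both genotypes thus held libraries with 1 strongly dominant segment and libraries without one.

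**Figure D2:**
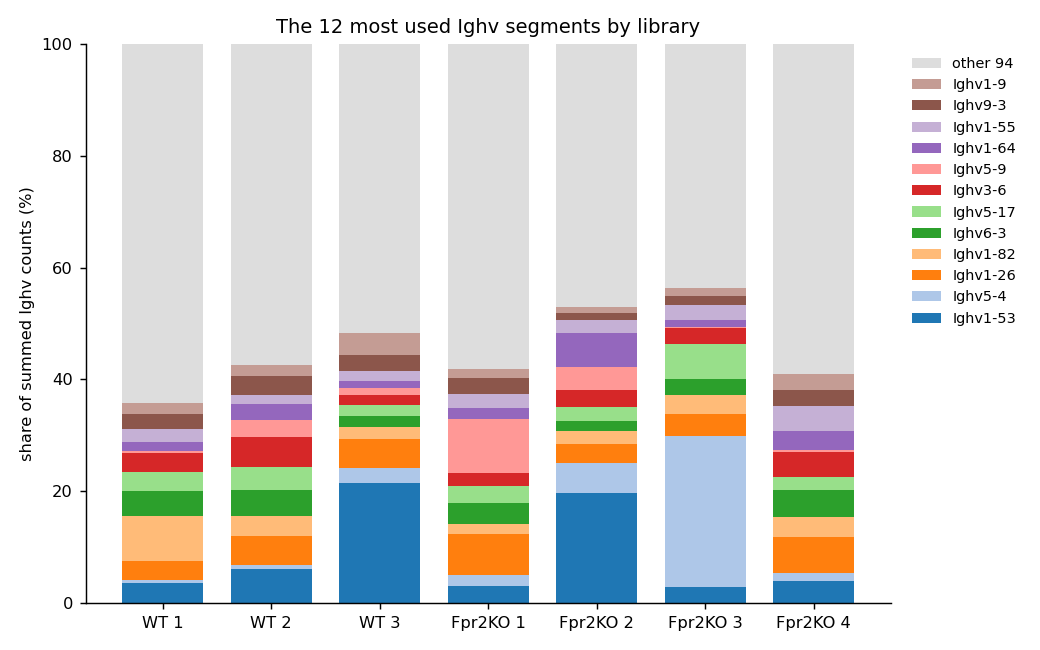
Stacked bars show the share of summed Ighv counts (%) taken by the 12 most used segments in each library, with the other 94 in grey. Ighv1-53 fills 21.4% of WT replicate 3 and 19.7% of Fpr2KO replicate 2, and Ighv5-4 fills 26.9% of Fpr2KO replicate 3.

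Ighv1-53 (ENSMUSG00000093894), a member of the large J558 family, was the most used segment by mean share. It took 3.58%, 6.03% and 21.4% of usage in WT and 2.97%, 19.7%, 2.89% and 3.98% in Fpr2KO. A single library of each genotype was high, and the other 5 lay between 2.89% and 6.03%. In reads, these were 20092 of 93709 in WT replicate 3 (Wilson 95% interval 21.2% to 21.7%) and 12555 of 63728 in Fpr2KO replicate 2 (19.4% to 20.01%). On the CPM scale its log2 fold change was -1.14 ± 1.41 (SE; edgeR quasi-likelihood test, adjusted p = 1.00), which became 0.96 without WT replicate 3 and -2.80 without Fpr2KO replicate 2. Its relative Ighv1-72, printed beside it above, stayed between 0.960% and 2.46% in all 7 libraries.

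Ighv5-4 (ENSMUSG00000095612), of the Ighv5 family near the constant genes, came next by mean share. It took 0.581%, 0.700% and 2.67% in WT and 2.02%, 5.25%, 26.9% and 1.42% in Fpr2KO. Fpr2KO replicate 3 stood 15.7-fold above the median of the other 6 libraries. In that library Ighv5-4 held 11810 of 43848 Ighv reads (Wilson 95% interval 26.5% to 27.4%). On the CPM scale the log2 fold change was 1.94 ± 1.60 (SE; edgeR adjusted p = 1.00), and 0.40 without Fpr2KO replicate 3. Ighv5-9 (ENSMUSG00000095285), its close relative in sequence, was high elsewhere, at 0.348%, 2.98% and 1.40% in WT and 9.60%, 4.05%, 0.176% and 0.369% in Fpr2KO. Of these 2 relatives, Ighv5-9 was at its lowest in the library where Ighv5-4 was at its highest. The log2 fold change of Ighv5-9 was 0.54 ± 1.47 (SE; edgeR adjusted p = 1.00), and -3.04 when the 2 libraries with acinar transcripts, in which it was highest, were left out.

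The remaining most used segments varied less, none reaching more than 3.38 times the median of its other 6 libraries (Ighv1-64). Ighv1-26 took 3.37%, 5.19% and 5.13% in WT and 7.27%, 3.46%, 4.03% and 6.37% in Fpr2KO, with no library standing alone. Ighv6-3 took 4.55%, 4.55% and 2.06% in WT and 3.74%, 1.78%, 2.91% and 4.90% in Fpr2KO. Ighv1-82, Ighv5-17, Ighv3-6, Ighv1-64, Ighv1-55, Ighv9-3 and Ighv1-9 ranged from a lowest share of 1.13% (Ighv1-64, WT replicate 3) to a highest of 7.95% (Ighv1-82, WT replicate 1). None of the 12 most used segments had shares that separated the genotypes.

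A highest share far above the median of the other libraries was a frequent pattern among the segments. The measure does not require that only 1 library was high. Ighv14-4 took 1.80% and 1.74% in WT replicates 2 and 3. Ighv1-53 took 21.4% in WT replicate 3 and 19.7% in Fpr2KO replicate 2. Ighv5-9 and Ighv1-78 were also high in more than 1 library. For 25 of the 105 segments for which it could be computed, the highest share was at least 4 times the median of the other 6 libraries. Of the 54 segments with a mean share of at least 0.5%, 10 did so. They peaked in 6 of the 7 libraries: Ighv1-71 and Ighv1-78 in WT replicate 1, Ighv14-4 in WT replicate 2, Ighv14-1, Ighv1-42 and Ighv1-53 in WT replicate 3, Ighv5-9 in Fpr2KO replicate 1, Ighv5-4 and Ighv1-47 in Fpr2KO replicate 3, and Ighv1-12 in Fpr2KO replicate 4. Ighv1-47 gave the largest ratio, 17.8: it took 0.232%, 0.788% and 0.0854% in WT and 0.213%, 0.113%, 3.92% and 0.228% in Fpr2KO. Without Fpr2KO replicate 3 its log2 fold change went from 1.57 to -1.22. Ighv1-78 took 4.92%, 0.640% and 0.347% in WT and 2.54%, 2.15%, 0.477% and 0.642% in Fpr2KO. Its log2 fold change of -0.57 became 1.02 without WT replicate 1.

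**Figure D3:**
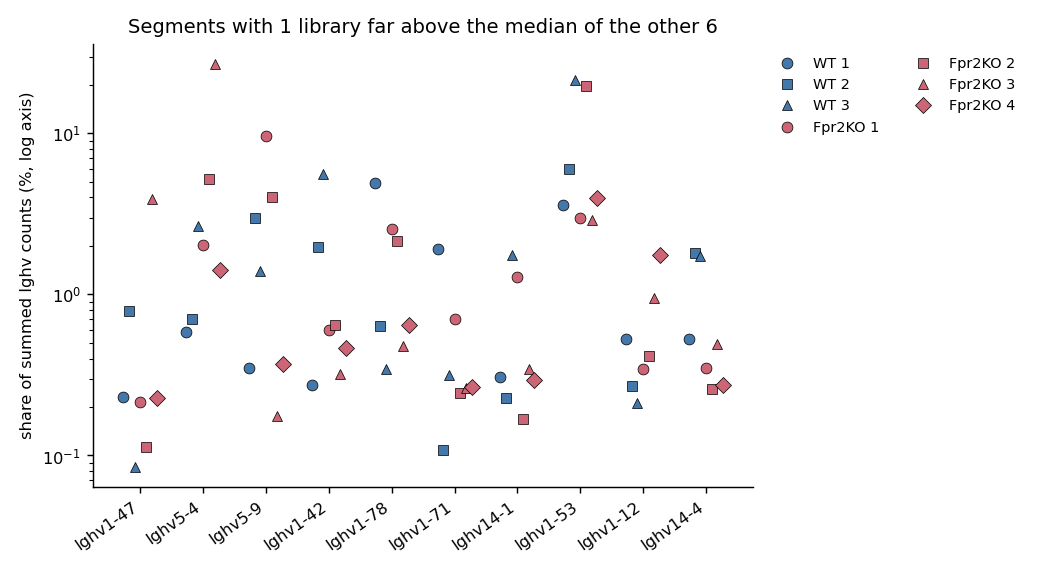
Points give the share of summed Ighv counts (%, log axis) in each library (blue WT, red Fpr2KO, 1 symbol per replicate) for the 10 segments with the largest ratio of the highest share to the median of the other 6, at a mean share of at least 0.5%. The top point belongs to WT in some columns (Ighv1-42 at 5.61%) and to Fpr2KO in others (Ighv1-47 at 3.92%).

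The same measure was taken over all genes of these libraries. On the CPM scale, 27 of the 93 members that passed edgeR's low count filter (29.0%) had a highest library at least 4 times the median of the other 6. The same held for 0.796% of all 16089 genes tested and for 0.530% of the 5658 genes within the middle range of member expression (7.04 to 41.0 CPM). The biological coefficient of variation estimated by edgeR had a median of 0.482 over the members and 0.160 over all genes. These are descriptions without a test, since segments of a library share its cells.

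Evenness was summarised as the effective number of segments, the inverse Simpson index of the shares, which is the number of equally used segments that would give the same concentration. It was 35.3, 38.3 and 15.9 in WT and 34.1, 17.6, 11.4 and 40.4 in Fpr2KO, with means of 29.9 ± 12.2 (SD, n = 3) and 25.9 ± 13.6 (SD, n = 4). The low and the high values occurred in both groups. When each library was counted without its own most used segment, the values were 38.6, 39.3 and 36.6 in WT and 40.6, 36.0, 34.8 and 42.4 in Fpr2KO. The means were then 38.2 ± 1.43 and 38.5 ± 3.66. Most of the difference in evenness between libraries was no longer there once 1 segment was taken out of each. The segment taken out was each library's largest, which weighs most in this index. The narrowing therefore follows in part from how the segment was chosen.

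Pairs of libraries were compared by the share of usage they had in common, the sum over segments of the smaller of the 2 shares. It was 55.8% to 71.0% for the 3 pairs within WT, 59.6% to 74.9% for the 6 pairs within Fpr2KO and 52.7% to 77.1% for the 12 pairs across genotypes. The most alike pair was WT replicate 2 with Fpr2KO replicate 4, and the least alike was WT replicate 3 with Fpr2KO replicate 3. The 3 ranges overlapped, and the medians were 67.3% within WT, 64.1% within Fpr2KO and 64.7% across genotypes. A range widens with the number of pairs, so the ends of these ranges cannot be compared directly. The order of the segments was alike in all libraries, with Spearman's rho over the 106 segments from 0.789 to 0.901 over all pairs, a description over segments that share a library.

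The Ighv1 (J558) family held 54 of the 106 members and most of the reads, with 52.5%, 50.5% and 67.4% of usage in WT and 46.0%, 63.3%, 40.2% and 54.4% in Fpr2KO. The Ighv5 family, with 9 members, took 7.66%, 10.1% and 8.16% in WT and 18.7%, 14.3%, 35.7% and 8.70% in Fpr2KO. Fpr2KO shares reached higher there, but replicate 4 lay within the WT range. The value of 35.7% in Fpr2KO replicate 3 contained the 26.9% of Ighv5-4.

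The Ighv14 (SM7) family, a small family of 4 members that lies between positions 113931953 and 114176867, was the only one of the 12 families with at least 2000 reads whose shares separated the genotypes. It took 6.10%, 5.17% and 5.31% of usage in WT and 3.61%, 2.06%, 2.66% and 3.87% in Fpr2KO, or 5.53% ± 0.5006 (SD, n = 3) and 3.05% ± 0.843 (SD, n = 4). On the CPM scale it stood at 151, 118 and 306 in WT and 57.7, 70.3, 68.9 and 85.8 in Fpr2KO. No test was run on the sum, because the family was singled out after its values were seen. Its 4 members were high in different WT libraries: Ighv14-2 in WT replicate 1 with 114 CPM, Ighv14-3 and Ighv14-1 in WT replicate 3 with 73.6 and 101 CPM, and Ighv14-4 in WT replicates 2 and 3. None of the 4 passed edgeR's test. The CPM ranges of the Ighv6, Ighv8 and Ighv9 families did not overlap either, with Fpr2KO lower, while their shares did. Among single genes, ranges were apart by CPM with Fpr2KO lower for 3.18% and higher for 2.73%. Relative to summed Ighv reads these were 0.0746% and 1.75%. That scale moved the median log2 fold change of all genes to 0.38, so its lower percentage does not show how rare a separated family is. Families are sums of several segments, so these percentages of single genes are given for orientation, beside 4 of 12 families by CPM and 1 by share.

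**Figure D4:**
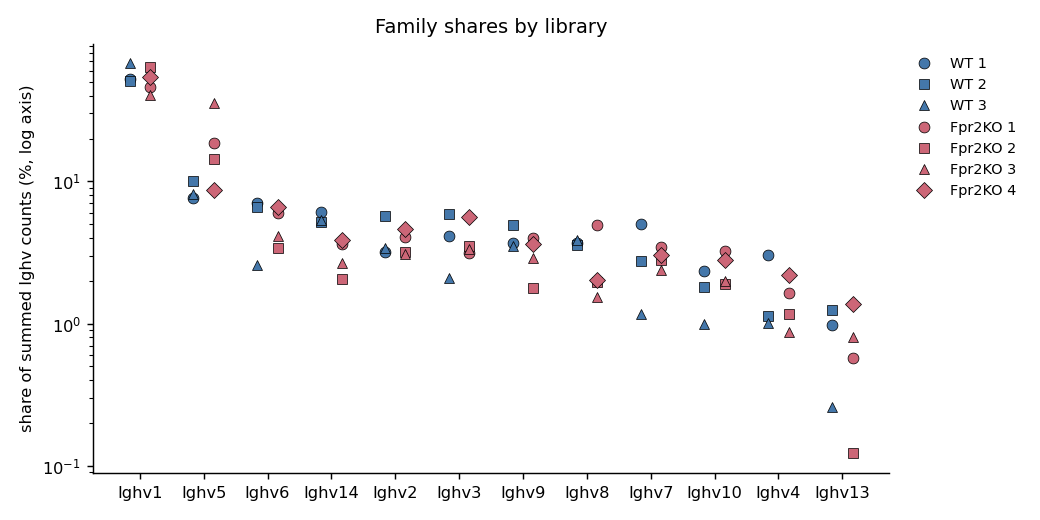
Points give each library's share of summed Ighv counts (%, log axis) for the 12 families with at least 2000 reads, WT in blue on the left and Fpr2KO in red on the right of each column. The ranges overlap in every column except Ighv14, where WT lies between 5.17% and 6.10% and Fpr2KO between 2.06% and 3.87%.

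Position along the locus matters in development, where the segments nearest the constant genes recombine without the looping that brings distant ones into reach. The 53 members from Ighv5-2, the nearest, to Ighv1-11 took 47.6%, 50.1% and 34.1% of usage in WT and 52.7%, 38.9%, 61.4% and 47.6% in Fpr2KO. The low values were those of WT replicate 3 and Fpr2KO replicate 2, where the distant Ighv1-53 was high, and the high value was that of Fpr2KO replicate 3, where the near Ighv5-4 was high. With Ighv1-53 and Ighv5-4 taken out the shares were 49.0%, 53.01% and 41.5% in WT and 53.4%, 44.8%, 49.1% and 48.9% in Fpr2KO, and the groups overlapped. WT replicate 3 and Fpr2KO replicate 2 were still the lowest, while Fpr2KO replicate 3 was no longer the highest.

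Segments known from particular B cell responses or subsets were looked at next. Ighv5-2 (VH81X), the member nearest the constant genes and a frequent early rearrangement, took 0.0221% to 0.109%. Ighv11-2 and Ighv12-3, which encode phosphatidylcholine-binding receptors of B-1 cells, took 0.117% to 1.02% and 0.0343% to 0.276%. Ighv12-3 was at 0.0810%, 0.0343% and 0.0566% in WT and 0.276%, 0.127%, 0.0889% and 0.103% in Fpr2KO, so that every Fpr2KO share exceeded every WT share, on only 334 reads in all. Its CPM ranges overlapped and it did not pass the test (log2 fold change 0.72, edgeR adjusted p = 1.00). Ighv7-1, the T15 segment of phosphorylcholine-binding antibodies, was at 48.0, 29.6 and 29.1 CPM in WT and 15.9, 20.4, 25.6 and 20.1 CPM in Fpr2KO. Its CPM ranges did not overlap, while its shares did, at 0.505% to 1.94% in WT and 0.598% to 0.997% in Fpr2KO.

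In the test across all genes, no segment passed an adjusted p of 0.05. Of the 106 members, 93 passed the low count filter; the other 13 had 20 to 117 reads each and 0.185% of the Ighv reads. EdgeR's quasi-likelihood test called 0 of the 93. Over all 16089 genes, 6 were called lower in Fpr2KO (0.0373%) and 0 higher (0%). At an unadjusted p under 0.05, 9 members were lower (9.68%, against 3.07% of all genes) and 1 was higher (1.08%, against 1.92%). Without WT replicate 3 these numbers were 4 lower and 4 higher of 94 (4.26% each, against 4.04% and 2.30% of all genes). With library size set to the summed Ighv reads they were 5 and 5 of 93. The share of all genes was not counted there, so these cannot be placed against it. DESeq2 called 1 member lower and 0 higher, against 0.305% and 0.0497% of all genes, and limma-voom called 0 members. A log2 fold change of -1 or less was found for 24 members (25.8%, against 1.07% of all genes) and of 1 or more for 4 (4.30%, against 0.385%). Without WT replicate 3 the lean to the lower side was gone, while the excess over all genes remained on both sides. There were then 9 members at -1 or less (9.57%, against 1.63%) and 10 at 1 or more (10.6%, against 1.16%). Large fold changes were thus common among the segments, and none of them passed edgeR's test with all 7 libraries on this scale.

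The CPM ranges of the genotypes did not overlap for 4 members that were lower in Fpr2KO (4.30%, against 3.18% of all genes) and for 1 that was higher (1.08%, against 2.73%). The lower ones were Ighv9-1, Ighv9-3, Ighv7-1 and Ighv14-4. Ighv9-1 (ENSMUSG00000096805) had the smallest p of all members. It stood at 8.70, 27.5 and 24.6 CPM in WT and 6.23, 7.07, 4.32 and 7.13 CPM in Fpr2KO, the lowest WT library being close to the Fpr2KO range. Its log2 fold change was -1.71 ± 0.39 (SE; edgeR adjusted p = 0.595). DESeq2 gave -1.71 with an adjusted p of 0.000439, and edgeR without WT replicate 1 gave -2.07 with an adjusted p of 0.00893. The 1 higher member was Ighv1-2, annotated as a pseudogene, with 92 reads in all and a log2 fold change of 1.12 (edgeR adjusted p = 0.910). Of the other members with the smallest p, Ighv9-3 had a log2 fold change of -1.03, Ighv7-1 of -0.79, Ighv2-6-8 of -1.25 and Ighv6-3 of -0.55 on the lower side. On the higher side Ighv12-3 had 0.72, Ighv1-12 0.99, Ighv3-1 0.46 and Ighv1-67 0.95. Their adjusted p ran from 0.667 for Ighv7-1 to 1.00.

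Ighv14-4 (ENSMUSG00000076666) was lower in every Fpr2KO library than in every WT library on both scales, without passing the test on either with all 7 libraries. It stood at 13.1, 41.2 and 99.9 CPM in WT and 5.58, 8.79, 12.8 and 6.04 CPM in Fpr2KO. Its shares were 0.529%, 1.80% and 1.74% in WT and 0.349%, 0.257%, 0.493% and 0.273% in Fpr2KO. WT replicate 1 lay just above the highest Fpr2KO library on both scales. The log2 fold change in CPM was -2.63 ± 0.73 (SE; edgeR adjusted p = 0.850), and -1.71 (adjusted p = 0.711) without WT replicate 3. Its near copy Ighv14-1, printed beside it above, had 7.63, 5.23 and 101 CPM in WT and 20.5, 5.79, 8.99 and 6.51 CPM in Fpr2KO, which overlapped.

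Most segments had lower CPM in Fpr2KO, and WT replicate 3 decided that direction. Of the 93 tested members 66 had a log2 fold change below 0, with a median of -0.42 against -0.0048 over all genes. Without WT replicate 3, 46 of 94 lay below 0 and the median was 0.0073. WT replicate 3 held the highest CPM for 48 of the 106 members, and Fpr2KO replicate 1 the lowest for 41. These were the libraries with the most and the least constant gene message. WT replicate 3 also had the most adipocyte message (42.9 CPM) and Fpr2KO replicate 1 the most acinar message (889 CPM), and their part in the segment levels was not tested.

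**Figure D5:**
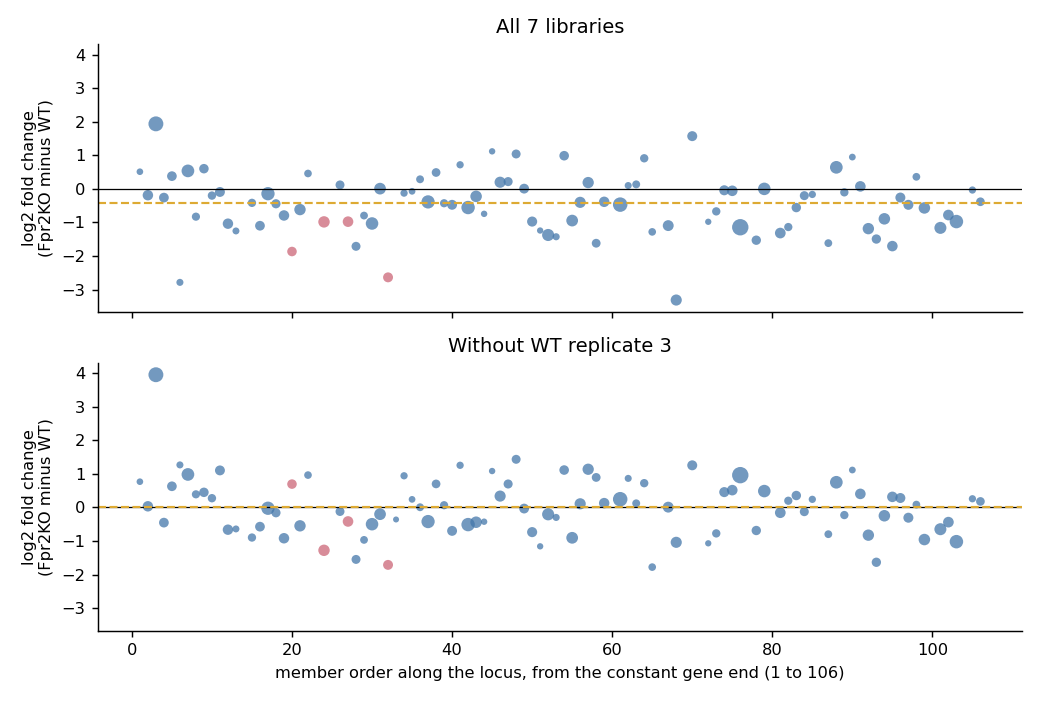
Each point is a tested segment placed by its order along the locus from the constant gene end, with its log2 fold change (Fpr2KO minus WT) in CPM on the vertical axis; point size grows with mean share, Ighv14 members are red, and the dashed line is the median. The median lies at -0.42 with all 7 libraries and at 0.0073 without WT replicate 3.

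When library size was set to the summed Ighv reads, so that a fold change is a change in usage, the members divided evenly: 44 lower and 49 higher, with a median of 0.048. The median of all genes moved to 0.38 on this scale. Percentages of all genes on it therefore lean to the higher side and are given for orientation only. Ighv1-42 passed the test there, with a log2 fold change of -2.36 (edgeR adjusted p = 0.00660), the 1 member called lower on this scale with 0 called higher, against 0.0435% and 0.0311% of all genes. Its shares were 0.273%, 1.97% and 5.61% in WT and 0.600%, 0.650%, 0.319% and 0.465% in Fpr2KO, so that the lowest share of all was that of WT replicate 1. Without WT replicate 3 Ighv1-42 had -1.14 on the usage scale (edgeR adjusted p = 1.00). Ighv14-4 was the single segment of 94 to pass there, with -1.76 (edgeR adjusted p = 0.0265). Over all 16495 genes of that fit, 11 were called lower and 3 higher. That fit was chosen after seeing the data. With all 7 libraries Ighv14-4 had -1.98 (adjusted p = 0.106). The shares of 3 segments were lower in every Fpr2KO library than in every WT library (Ighv14-4, Ighv8-4 and Ighv1-79) and those of 3 were higher (Ighv12-3, Ighv8-6 and Ighv1-83). Of these 6 only Ighv14-4 and Ighv12-3 were among the 93 tested, 1 in each direction, against 0.0746% of all genes lower and 1.75% higher on the same scale. Apart from Ighv14-4 these had between 20 and 334 reads over the 7 libraries.

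The constant genes joined to these segments differed in make-up between libraries, and none passed the test. Of the 8, 6 had a log2 fold change below 0, with a median of -0.53, and without WT replicate 3 these were 4 and -0.035. Ighg2c, the IgG2c constant gene, was at 1124, 1683 and 4480 CPM in WT and 451, 1008, 600 and 954 CPM in Fpr2KO, ranges that did not overlap (log2 fold change -1.69 ± 0.57, edgeR adjusted p = 0.945). Igha, the IgA constant gene, was at 693, 1652 and 509 CPM in WT and 1923, 1378, 2461 and 1479 CPM in Fpr2KO, with overlap (log2 fold change 0.93 ± 0.47, adjusted p = 1.00). Switched classes (IgG, IgA and IgE) made up 20.3%, 36.0% and 26.0% of constant gene CPM in WT and 34.2%, 24.0%, 25.3% and 33.0% in Fpr2KO. Which constant gene each V segment was joined to was not analysed here.

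Genes of the cells and enzymes that make and diversify the heavy chain were compared from lists, and no list member passed the test. The 12 plasma cell genes all had a log2 fold change below 0, with a median of -0.33, but without WT replicate 3, their highest library, 7 were below 0 and the median was -0.0093. The lowest p values with all 7 libraries were those of Prdm1 (-0.32), the plasma cell master regulator, and Fkbp11 (-0.67). The 14 B cell genes had a median of -0.02 with 8 below 0, with Cd37 at -0.14. Of 7 B-1 cell genes 4 were below 0 and the median was -0.05, with Plscr1 at -0.36 (edgeR adjusted p = 0.872) and Spn at 0.13. The 4 light chain constant genes had a median of 0.03, with Igkc, the kappa chain that most mouse antibodies carry, at -0.65 and Iglc3, of the lambda chains, at 0.13. The genes of V(D)J end joining had 6 of 7 above 0 and a median of 0.11, with Xrcc5, which holds the broken DNA ends as part of Ku, at 0.18 and Xrcc4, a partner of the DNA ligase, at 0.17. Those of somatic hypermutation and switching had 4 of 7 below 0 and a median of -0.05, with Trp53bp1, a DNA break factor of class switching, at -0.22. Without WT replicate 3 the medians of the B-1 cell and hypermutation lists were 0.12 and 0.028, and 4 of the 7 end joining genes were above 0. Among 9 regulators of the locus, 6 were above 0 and the median was 0.08. In that list Pou2af1, the coactivator that acts with octamer factors on immunoglobulin promoters, was at 375, 334 and 436 CPM in WT and 271, 316, 285 and 302 CPM in Fpr2KO (log2 fold change -0.38 ± 0.10, edgeR adjusted p = 0.614), without overlap, and Yy1 was at 0.12.

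Genes of the recombination stage were nearly silent. Rag1 and Rag2, the recombinase, had at most 0.654 and 0.176 CPM, Vpreb1 and Igll1, parts of the surrogate light chain, at most 0.736 and 0.0669 CPM, and Vpreb2 had 0 reads. Dntt, which adds bases at the joins, was the only gene of the 6 to pass the low count filter, with a log2 fold change of -0.52 (edgeR adjusted p = 1.00).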

How the data were processed

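PolyA RNA of 7 mouse spleen samples (WT, n = 3; Fpr2KO, n = 4) was measured, grouped by the labelled genotype. The deposited values are raw read counts per Ensembl gene, made by the authors with HTSeq 0.10.0 on mm10 (GRCm38) after FastQC 0.10.1, per the submitters' processing notes. The aligner, the strand setting and the handling of reads that match several segments are not given in the sources used here, and all 3 bear on counts of near-identical segments. Symbols and positions came from GENCODE M21: 52081 of 55414 IDs matched, with 99.8% of the counts. The annotation release that the authors counted with was not given either.

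The whole table was fitted with edgeR 4.0.16 in R 4.3.3 (robust quasi-likelihood F test, TMM scaling, filterByExpr at its defaults, 16089 genes), with Benjamini-Hochberg adjustment over all genes and a call at an adjusted p under 0.05. Log2 fold changes are Fpr2KO minus WT, and CPM uses TMM factors. Usage is the percent of summed Ighv counts, so a rise of 1 segment lowers the others; a floor of 3 counts in a library is 0.00320% to 0.0110% of usage. Wilson intervals are at 95%.

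The members and all lists were chosen with earlier results of these data known. Segments were named by rule: the 12 with the highest mean share, the 6 with the smallest p in each direction, the 10 with the largest ratio of the highest share to the median of the other 6 libraries at a mean share of at least 0.5%, any called, and Ighv11-2, Ighv12-3, Ighv7-1, Ighv5-2 and Ighv1-72. From each list the 2 genes with the smallest p were named, except 2 genes that are not reported here. Other genes and segments named (Cd79a, Ms4a1, Jchain, the recombination genes, Ighv14-2, Ighv14-3, Ighv8-4, Ighv8-6, Ighv1-79 and Ighv1-83) were picked with their values in view.

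The alternatives tried were DESeq2 1.42.0, limma-voom with quality weights (limma 3.58.1), upper-quartile or RLE scaling, other low count filters, robust estimation off, each library left out, a replicate block, other library sizes including summed Ighv counts, and other member rules. The edgeR step was tested on simulated counts for this comparison over 15826 genes. At 1.5-fold 12% of 50 changed genes were found, at 2-fold 80%, at 3-fold 98% and at 4-fold 100%, with 9 false calls among 154. These were drawn with the average spread at their level, which the segments exceed.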

Additional observations from a re-analysis of the deposited data

Results flagged for a closer look

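Of 43 segment shares, family shares and library measures checked in the 4 Fpr2KO libraries, 9 had a library whose gap to its nearest neighbour relative to the group's range exceeded Dixon's 95% critical value for 4 samples. Chance flags about 1 in 20 groups that were not chosen by their values. However, 5 of the 9 were segments named for a highest share far above the median of the other libraries. The number flagged therefore cannot be read against that rate. Fpr2KO replicate 3 stood out for Ighv5-4 with 26.9% of usage, Ighv5-17 with 6.31% and Ighv1-47 with 3.92%. Fpr2KO replicate 2 stood out for Ighv1-53 with 19.7%. Fpr2KO replicate 1 stood out for Ighv14-1 with 1.28%, Ighv1-71 with 0.706% and the Ighv8 family with 4.93%. Fpr2KO replicate 4 stood out for Ighv11-2 with 1.02% and the Ighv3 family with 5.60%. All 9 were the highest library of the group. The group of 3 WT libraries was not checked this way.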

How the results depend on the processing

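The number of called segments was 0 under RLE and upper-quartile scaling, both other low count filters, robust estimation off, limma-voom, library sizes without immunoglobulin and haemoglobin genes, and with Fpr2KO replicates 1 and 2 left out. Over all genes these settings called 5 to 21. It was 1 with DESeq2, 1 on the usage scale and 1 on the usage scale without WT replicate 3, the last chosen after seeing the data. Over all genes these called 57 of 16089, 12 of 16089 and 14 of 16495. With a library left out the number of called segments was 0 to 1, against 5 to 15 genes. The 1 came without WT replicate 1, where 10 of 16483 genes were called. Same-numbered samples did not deviate alike from their group means (r = 0.078, -0.434 and -0.073). These values cannot decide whether samples were handled in pairs, which the labels do not say. The fit with the replicate number as a block called 0 segments and 2 of 16089 genes, with a median of -0.50 over the segments. In that fit Ighv1-55 (-0.14) and Ighv11-2 (-0.50) reversed. The median log2 fold change over the segments was 0.048 on the usage scale, -0.0099 on that scale without WT replicate 3, and -0.55 to 0.0073 with a library left out. The difference in summed share ran from -0.152 to 0.0242 percentage points and that in effective number from -11.0 to 0.860 with a library left out. Of 550 fits of the 29 named segments, 515 kept direction and side of the threshold, 31 reversed and 4 newly passed; 12 segments reversed somewhere. On the usage scale Ighv1-26 (0.21) and Ighv5-17 (0.17) reversed, and on that scale without WT replicate 3 Ighv1-53 (0.62), Ighv1-26 (0.30), Ighv14-1 (0.95) and Ighv11-2 (-0.13). With Fpr2KO replicates 1 and 2 left out Ighv5-17 (0.16), Ighv5-9 (-3.04) and Ighv1-64 (-0.043) reversed, with limma-voom Ighv5-9 (-1.69) and Ighv1-64 (-0.14), and with no low count filter Ighv1-55 (-0.0026). With a library left out the log2 fold change ran from -2.80 to 0.96 for Ighv1-53, -0.79 to 0.25 for Ighv1-26, -0.64 to 0.075 for Ighv5-17, -0.046 to 0.98 for Ighv5-9, -0.25 to 0.93 for Ighv1-64 and -0.28 to 0.49 for Ighv1-55. The same ranges were -1.22 to 1.02 for Ighv1-78, -1.22 to 2.41 for Ighv1-47, -2.42 to 0.70 for Ighv14-1, -0.45 to 0.41 for Ighv11-2, -0.17 to 1.27 for Ighv1-67 and -0.0051 to 0.84 for Ighv5-2. The cause of these reversals was not tested. The counts of segments past an unadjusted p or a fold change and the list medians without WT replicate 3, given with those results, were also chosen after seeing the data. At least 200 reads in all were held by 87 of the 106 segments; the others rest on few reads in each library.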
